A study of Mus musculus with 3 samples.

Results

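The 10 genes described here encode C-type lectin receptors, membrane proteins with a C-type lectin-like domain that sense sugars, lipids and crystals on microbes and damaged cells, or other cells. They were taken as a named list of symbols, and all 10 of 10 were found among the 55536 genes of the gene tables: Clec4a1, Clec4a2, Clec4a3, Clec4d, Clec4e, Clec4n, Clec5a, Clec7a, Clec12a and Clec2d. RNA with poly(A) tails was sequenced from macrophages grown in culture from bone marrow of mice of the strain C57BL/6J, in a series that used lipid A, the part of bacterial lipopolysaccharide sensed by Toll-like receptor 4, at 100 ng/ml. All 3 libraries, replicates 1, 2 and 3, carry the time 0 min and form 1 group, so the design holds no contrast between conditions and no test of one was made. Each library has a biosample record of its own and all share 1 donor record, and whether the cultures came from separate animals is not stated, so the spread between libraries may be partly technical.

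Signalling by these receptors falls into a few well-known types. Clec7a (Dectin-1, a receptor for fungal beta-glucan) carries its own tyrosine motif, called a hemITAM, which recruits the kinase Syk. Clec4n (Dectin-2, for mannans), Clec4e (Mincle, for mycobacterial cord factor) and Clec4d (MCL, a partner of Mincle) borrow the motif of the Fc receptor gamma chain, encoded by Fcer1g, while Clec5a (MDL-1) uses the adaptor encoded by Tyrobp. Clec4a2 (DCIR) and Clec12a (MICL) carry an inhibitory motif, the ITIM, which recruits phosphatases such as that encoded by Ptpn6. Clec4a1 and Clec4a3 are close relatives of Clec4a2, and Clec2d (Clr-b) is a ligand of an NKR-P1 receptor of natural killer cells.

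The motifs can be read in the reference transcripts. The first 60 coding bases of 5 members are shown, because they separate the inhibitory members from their relatives and from Clec7a. Capitals mark the codons of the motif, or, where no motif was found in the first 20 codons, the codon of the single tyrosine there. The letters are from GENCODE M21 transcripts on mm10, 5′ to 3′.
Clec12a (chr6:129350421-129350480, + strand, ITIM): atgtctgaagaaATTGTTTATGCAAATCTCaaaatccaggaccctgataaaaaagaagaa
Clec4a2 (chr6:123123588-123123647, + strand, ITIM): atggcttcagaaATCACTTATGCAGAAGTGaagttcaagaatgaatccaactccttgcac
Clec4a1 (chr6:122921974-122922033, + strand, tyrosine): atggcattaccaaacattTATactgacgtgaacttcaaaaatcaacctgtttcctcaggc
Clec4a3 (chr6:122952868-122952927, + strand, tyrosine): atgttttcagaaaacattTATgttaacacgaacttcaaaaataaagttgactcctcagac
Clec7a (chr6:129472626-129472685, - strand, hemITAM): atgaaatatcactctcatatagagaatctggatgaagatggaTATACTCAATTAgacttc

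The ITIM of Clec12a and that of Clec4a2 each took codons 5 to 10, and the hemITAM of Clec7a took codons 15 to 18. Clec4a1 and Clec4a3 had their tyrosine at codon 7, the codon that holds it in Clec4a2, without the full set of flanking residues of an ITIM (isoleucine, leucine, valine or serine 2 residues before the tyrosine and isoleucine, leucine or valine 3 after it). Clec4a1 has the valine after the tyrosine but not the residue before it, and Clec4a3 has neither. The other 5 members, Clec4d, Clec4e, Clec4n, Clec5a and Clec2d, had 0 tyrosine codons among the first 20. Over the coding sequences of all 45 pairs of members the median identity of aligned bases was 62.1%, and the 3 highest values were those between Clec4a2 and Clec4a3 (76.7%), Clec4a1 and Clec4a3 (73.4%), and Clec4a1 and Clec4a2 (71.2%).

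All 10 members reached 1 TPM, a measure of abundance corrected for transcript length and library size, in every library, against 44.8% of protein-coding genes. The median over members of the mean level was 146 TPM, and the library medians were 83.0, 197 and 148 TPM in replicates 1, 2 and 3 (SD 57.0, n = 3). The median was 18.6 TPM over the 10548 genes that reached 1 TPM in every library. By mean level 8 of the 10 members lay above the 75th percentile of those genes. The members together took 1501, 2274 and 2443 TPM in replicates 1, 2 and 3. Because this is bulk RNA, fewer cells of a type and less RNA per cell cannot be told apart.

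Among the activating receptors that couple to the Fc receptor gamma chain the levels were far apart. Clec4d had 689, 441 and 721 TPM in replicates 1, 2 and 3 (617 ± 153 TPM, SD, n = 3), at the 98.2th percentile, and replicate 2 was the low one. Clec4n had 188, 447 and 189 TPM (275 ± 149 TPM, SD, n = 3). Replicate 2 was the high one here, and the other libraries lay within a few TPM of each other. Clec4e, whose protein pairs with that of Clec4d, had 10.3, 29.6 and 8.66 TPM (16.2 ± 11.6 TPM, SD, n = 3) and was the lowest member in every library. Its highest library again was replicate 2, and no library of Clec4e reached any library of Clec4d. Clec4d and Clec4e lie next to each other, tail to tail, 6.52 kb apart.

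Clec7a had 178, 475 and 789 TPM in replicates 1, 2 and 3 (481 ± 306 TPM, SD, n = 3). Its libraries were spread over 4.43-fold in TPM, and it ranked below Clec4d and Clec4n in replicate 1 and above all other members in replicates 2 and 3. Clec5a had 37.7, 29.8 and 30.0 TPM (32.5 ± 4.51 TPM, SD, n = 3). That was the smallest relative spread of the 10, with an SD of 13.9% of the mean.

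Of the receptors with an ITIM, Clec12a had 131, 148 and 282 TPM in replicates 1, 2 and 3 (187 ± 82.7 TPM, SD, n = 3), with replicate 3 high. Clec4a2 had 70.7, 56.8 and 44.3 TPM (57.2 ± 13.2 TPM, SD, n = 3), with replicate 1 high. The levels of these receptors did not overlap, and Clec12a was the more abundant in every library.

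The relatives of Clec4a2 without an ITIM were both low in replicate 1. Clec4a1 had 51.2, 224 and 174 TPM in replicates 1, 2 and 3 (149.8 ± 89.0 TPM, SD, n = 3). Clec4a3 had 48.5, 254 and 121 TPM (141 ± 104 TPM, SD, n = 3). In replicate 1 both were below Clec4a2, and in replicates 2 and 3 both were above it. Clec2d had 95.3, 169 and 82.5 TPM (116 ± 46.9 TPM, SD, n = 3), with replicate 2 high. Genes of the NKR-P1 family were near absent: 0 of 5 reached 1 TPM in every library. Klrb1b had 0.05, 0.00 and 0.16 TPM in replicates 1, 2 and 3.

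**Figure D1:**
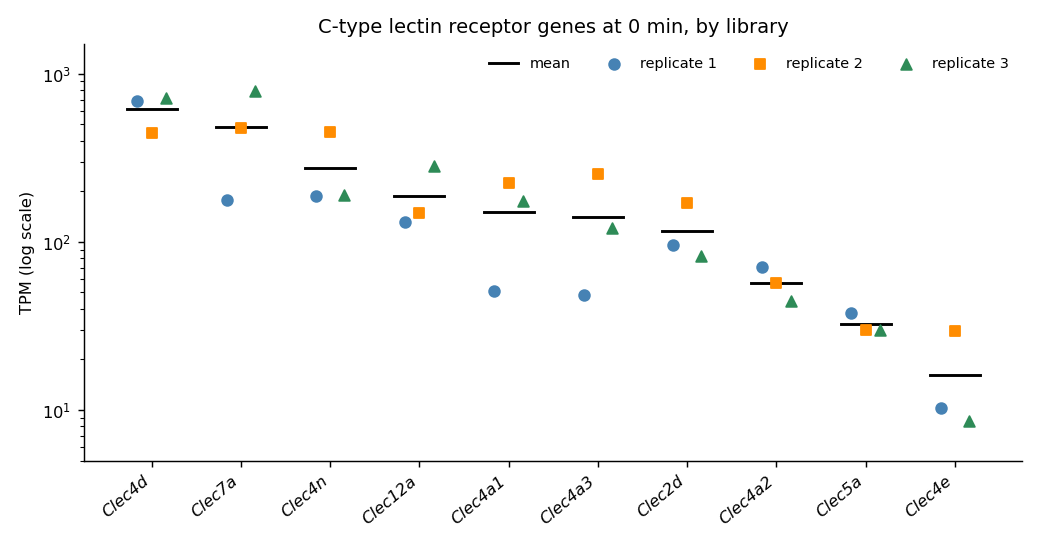
Level of each of the 10 C-type lectin receptor genes at 0 min, in TPM on a log scale, with 1 point per library and a bar at the mean of the 3 libraries. The genes run from Clec4d (617 TPM) to Clec4e (16.2 TPM), and the points of neighbouring genes overlap down to Clec2d.

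In the order by mean level (Clec4d, Clec7a, Clec4n, Clec12a, Clec4a1, Clec4a3, Clec2d, Clec4a2, Clec5a, Clec4e) each gene from Clec4d to Clec4a3 overlapped with the next one. Clec4d was above Clec7a in 1 of 3 libraries only, and without replicate 1 the mean of Clec4d was 581 TPM and that of Clec7a 632 TPM. From Clec2d on, the ranges of neighbours were separate: Clec2d lay above Clec4a2, Clec4a2 above Clec5a and Clec5a above Clec4e in 3 of 3 libraries. Of all 45 pairs of members, 33 had the same order in every library. Counting error was small beside this spread. The expected counts ran from 413 for Clec4e in replicate 1, which is 14.8 CPM, a count scaled to library size (95% Wilson interval 13.4 to 16.3), to 55218 for Clec7a in replicate 3.

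All 10 genes are on chromosome 6 (mm10), 9 of them in 2 clusters. Clec4a1, Clec4a3, Clec4a2, Clec4n, Clec4d and Clec4e lie in this order within 368 kb (chr6:122921848-123289870). Of the 3 other coding genes between them, Clec4b1 had 4.40, 2.58 and 5.04 TPM in replicates 1, 2 and 3, whereas Clec4a4 and Clec4b2 stayed below 1 TPM in every library. Clec2d, Clec12a and Clec7a span 292 kb (chr6:129180615-129472779). Among the 6 other coding genes there, Cd69, an early activation antigen of lymphocytes, had 1.91, 10.8 and 2.80 TPM, and Clec1b, a receptor of platelets, had 0.72, 1.29 and 3.48 TPM. The remaining 4 (Clec12b, Clec9a, Clec1a and 4922502D21Rik) were below 1 TPM in every library. Clec5a stands alone at chr6:40574894-40585821.

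**Figure D2:**
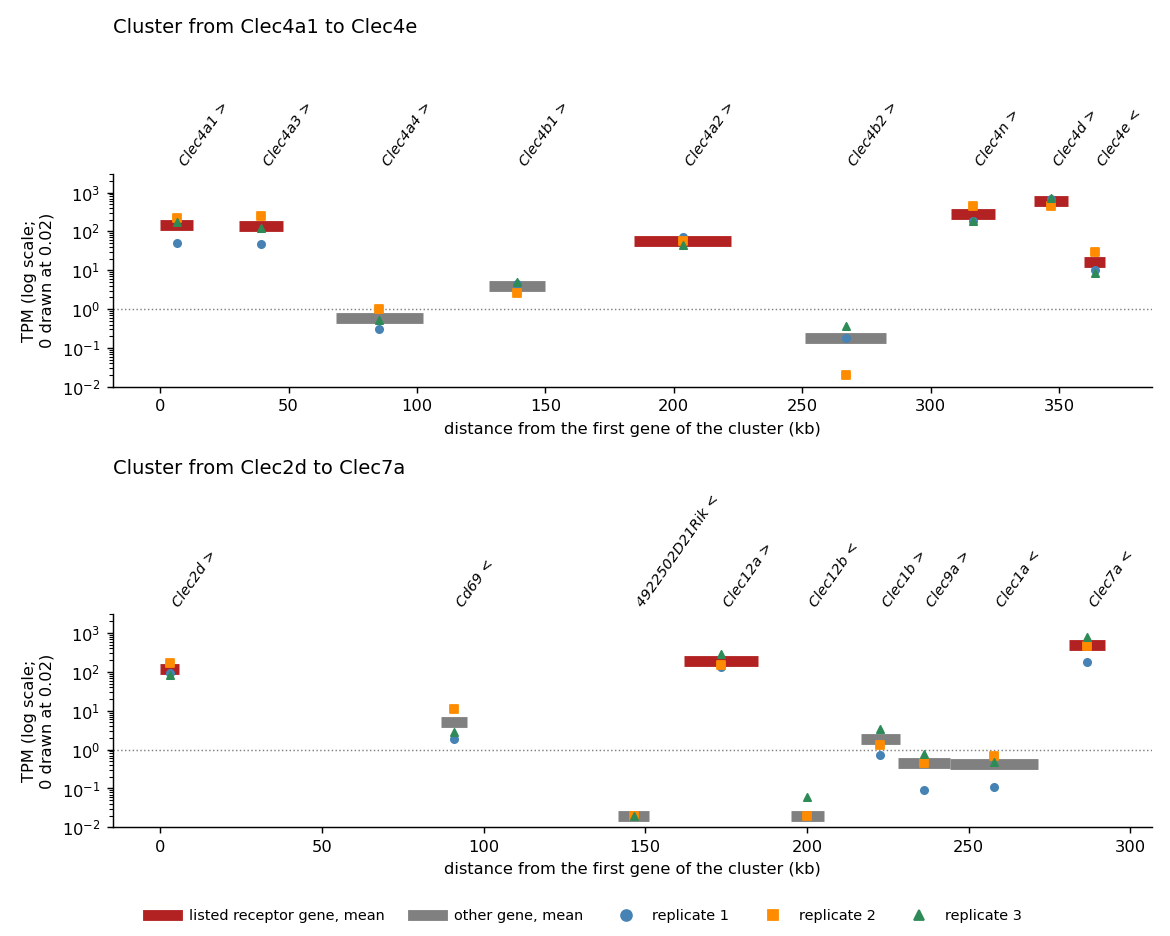
Level of each coding gene in the 2 clusters (TPM, log scale, values of 0 drawn at 0.02) against distance from the first gene of the cluster in kb. Bars span the gene body at its mean level and points are the 3 libraries; arrowheads beside the names give the strand. The listed receptor genes all lie above the dotted line at 1 TPM, and most of the other genes between them below it.

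The libraries were set against each other on counts scaled by TMM, a method that aligns the bulk of genes between libraries. Between replicates 1 and 2, 5 of 10 members (Clec4a1, Clec4a3, Clec4e, Clec4n and Clec7a) were over 2-fold apart, against 20.1% of the 11886 genes tested. Between replicates 1 and 3, 4 of 10 (Clec4a1, Clec4a3, Clec7a and Clec12a) were over 2-fold apart, against 21.1% of genes. Between replicates 2 and 3, 3 of 10 (Clec4e, Clec7a and Clec12a) were, against 19.0% of genes. On the TPM scale the last count was 4 and shared 1 gene with these 3, Clec4e; Clec4a3, Clec4n and Clec2d replaced Clec7a and Clec12a. The median over members of the highest over the lowest library was 2.43-fold, against 1.73-fold over all genes tested. The widest members were Clec7a (6.98-fold), Clec4a3 (5.34-fold) and Clec4a1 (4.32-fold), and the narrowest was Clec4a2 (1.33-fold).

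The members did not share 1 pattern over the libraries. Replicate 1 was the highest library for 1 of 10 members, Clec4a2, against 34.7% of genes. Replicate 2 was the highest for 5 of 10 (Clec4a1, Clec4a3, Clec4e, Clec4n and Clec2d), against 32.3% of genes. Replicate 3 was the highest for 4 of 10 (Clec4d, Clec5a, Clec7a and Clec12a), against 33.0% of genes. On the TPM scale Clec5a was highest in replicate 1. On the TMM scale Clec4a1 was nearly level between replicates 2 and 3, with a log2 difference of -0.01 (replicate 3 minus replicate 2), and it counted as highest in replicate 3 with no filter on low counts and in kallisto-format counts. The ratios of single members reached a log2 of -2.10 for Clec4a1, -2.08 for Clec4a3 and -2.10 for Clec7a in replicate 1, and 2.10 for Clec7a in replicate 3, each against the mean of the other libraries.

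**Figure D3:**
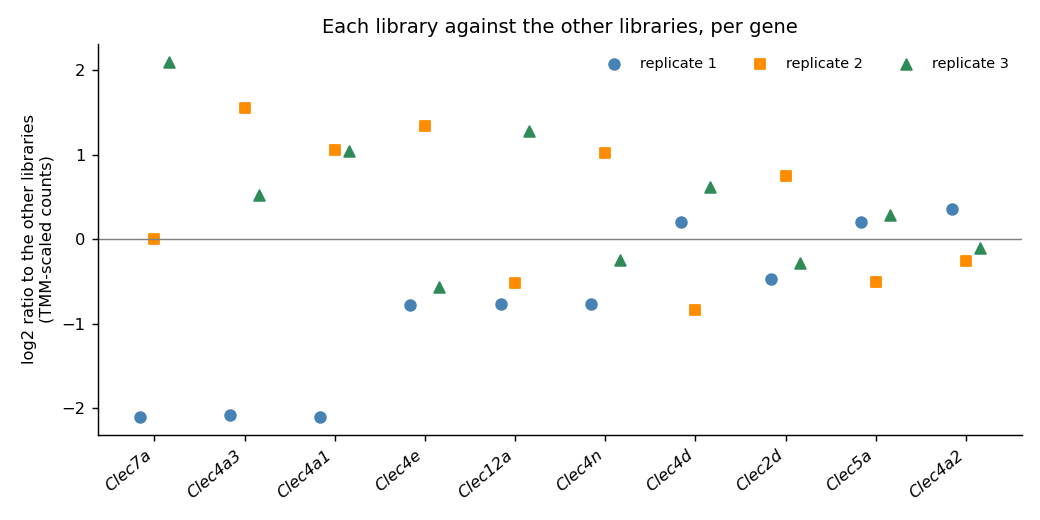
Log2 ratio of TMM-scaled counts of each library to the mean of the other 2 libraries, per gene, in order of the gene's spread. Clec7a runs from -2.10 in replicate 1 to 2.10 in replicate 3, and Clec4a2 stays within 0.36 of 0.

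Other gene lists moved between the same libraries. All 12 of 12 interferon-stimulated genes were highest in replicate 2, with a median log2 ratio of 1.87 there, and -0.87 and -1.10 in replicates 1 and 3. Of 12 neutrophil markers 5 reached 1 TPM in every library, and their summed level was 199, 53.3 and 364 TPM in replicates 1, 2 and 3, with Ly6g, the defining marker, at 0 in each. S100a9 (86.9, 20.1 and 183 TPM) and S100a8 (65.1, 12.3 and 83.0 TPM) led that list. Of 8 monocyte markers 6 reached 1 TPM in every library, with a summed level of 88.8, 249 and 117 TPM. Their median log2 ratios were -0.45, 0.17 and 0.17 in replicates 1, 2 and 3. Those of the receptors were -0.76, 0.37 and 0.41, and those of the macrophage markers -0.37, 0.27 and -0.35. The 5 neutrophil markers tested had 0.33, -2.85 and 2.51, and the 9 other C-type lectin receptor genes tested -0.91, 0.17 and 0.32. Ms4a4c (35.5, 154 and 48.8 TPM) and F13a1 (10.1, 50.2 and 23.6 TPM) led the monocyte list. Its other markers did not all follow, among them Chil3 (17.7, 17.7 and 12.6 TPM) and Ccr2 (10.1, 10.1 and 10.9 TPM). By TMM-scaled counts 2, 3 and 3 of the 8 monocyte markers were highest in replicates 1, 2 and 3. The part of these lists in the levels of the receptors was not tested. At the same threshold, 9 of 9 macrophage markers, 1 of 8 dendritic cell markers and 0 of 10 markers of T, NK and B cells were present in each library.

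The signalling partners of the receptors were present. Of 18 adaptor, kinase and phosphatase genes 17 reached 1 TPM in every library, the exception being Fgr (0.93, 0.78 and 1.26 TPM). Tyrobp, the adaptor of Clec5a, had 2984, 3631 and 1785 TPM in replicates 1, 2 and 3. Fcer1g, the chain shared by Clec4n, Clec4e and Clec4d, had 1709.7, 2222 and 1131 TPM. Both adaptors were higher than any of the 10 receptors in each library. Syk had 104, 182 and 207 TPM, and Card9, which links Syk to NF-kB, had 26.0, 36.8 and 12.3 TPM. Ptpn6, the phosphatase recruited by ITIMs, had 135, 182 and 190.5 TPM.

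Most other C-type lectin receptor genes listed were below 1 TPM. Of 31 further genes of this kind 7 reached 1 TPM in every library and 23 were below 1 TPM in every library. Mrc1, the macrophage mannose receptor, had 544, 262 and 342 TPM in replicates 1, 2 and 3 with a mean of 383 TPM, between those of Clec7a and Clec4n. Clec10a, a receptor for galactose-type sugars, had 8.06, 87.1 and 25.8 TPM, and Colec12, a scavenger receptor with a lectin domain, had 23.1, 20.4 and 15.9 TPM. Among those listed at 0 in every library were Clec4f, a Kupffer cell receptor, and Cd209b.

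The deposited tables also divide each gene among its annotated transcripts. The RSEM-format and the kallisto-format table rest on the same reads, so agreement between them is no independent check. Clec4a1 and Clec2d have 1 transcript each, and the other 8 members have between 3 and 7. The leading transcript, the one with the largest share of a gene's TPM, was not the same in every library for 1 of 8 members, Clec4a2, against 23.3% of 9419 genes with several transcripts. The RSEM-format and the kallisto-format table named different leading transcripts in some library for 0 of 8 members, against 23.2% of genes. The share taken by the leading transcript was lower in the kallisto-format table for Clec12a, where Clec12a-201 averaged 94.4% ± 3.06 in the RSEM-format table and 72.9% ± 3.24 in the kallisto-format table (SD, n = 3). The difference went to Clec12a-204, a model whose coding end is not annotated, with 0.49, 0.51 and 17.8 TPM in the RSEM-format table and 22.1, 31.9 and 79.8 TPM in the kallisto-format table in replicates 1, 2 and 3.

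In 4 members an internal coding exon was skipped in 10% to 90% of the relevant TPM, on average, in both tables. They are 4 of the 8 members with several transcripts, against 16.7% of 9419 such genes. The relevant TPM are those of transcripts with an annotated coding sequence that skip or include the exon. The exons are shown because they are what the competing transcripts differ in. Capitals mark the exon and lower case the 12 bases on each side of it in the spliced RNA. The Clec7a line is that of Clec7a-204, and the first 10 capitals are not part of Clec7a-201; the coordinates are those of the exon in mm10.
Clec7a, 135 bases (chr6:129468869-129469003, - strand): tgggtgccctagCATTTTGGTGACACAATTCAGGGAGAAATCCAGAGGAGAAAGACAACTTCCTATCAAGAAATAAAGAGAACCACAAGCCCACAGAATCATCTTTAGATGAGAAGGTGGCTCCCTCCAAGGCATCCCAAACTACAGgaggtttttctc
Clec4n, 102 bases (chr6:123232093-123232194, + strand): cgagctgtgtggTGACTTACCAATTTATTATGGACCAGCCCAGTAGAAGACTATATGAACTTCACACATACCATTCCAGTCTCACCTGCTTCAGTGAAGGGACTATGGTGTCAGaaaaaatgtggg
Clec4a2, 72 bases (chr6:123139057-123139128, + strand): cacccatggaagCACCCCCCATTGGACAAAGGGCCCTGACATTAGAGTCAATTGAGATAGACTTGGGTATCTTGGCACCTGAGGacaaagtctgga
Clec5a, 75 bases (chr6:40584356-40584430, - strand): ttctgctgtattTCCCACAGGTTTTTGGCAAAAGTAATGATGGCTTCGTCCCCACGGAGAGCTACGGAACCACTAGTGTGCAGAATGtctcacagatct

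Each of these lengths is a multiple of 3, and they equal 45, 34, 24 and 25 codons in Clec7a, Clec4n, Clec4a2 and Clec5a. In the last 3 genes skipping keeps the reading frame. For Clec7a the 135 bases are those of Clec7a-204, whose frame already holds a stop at codon 71. In Clec7a-201 the exon begins 10 bases later and exon 2 is 10 bases longer. Its coding sequence has 244 codons, against 199 in Clec7a-202, which skips the exon. In Clec7a the exon encodes the stalk between the membrane and the lectin domain, and the long and stalkless forms of Dectin-1 are known isoforms whose balance varies with mouse strain. The transcript that skips it, Clec7a-202, took 38.5%, 37.9% and 14.5% of TPM over skipping and including transcripts in replicates 1, 2 and 3 of the RSEM-format table (30.3% ± 13.7, SD, n = 3). In the kallisto-format table it took 37.0%, 35.9% and 10.6%. Replicate 3 was thus low in both. In TPM, Clec7a-202 had 68.6, 179 and 113 in replicates 1, 2 and 3, and the transcripts with the exon together had 109, 293 and 668. The latter are Clec7a-201 (73.3, 214 and 529 TPM) and Clec7a-204 (36.0, 79.3 and 139 TPM). Because Clec7a-204 holds a stop, the share is not the balance of stalkless and long protein. The transcripts with the exon were highest in replicate 3, and Clec7a-202 was highest in replicate 2. Clec7a-202 ends with a last exon of 142 bases, and Clec7a-201 and Clec7a-204 with one of 1577 bases. Reads in the long untranslated end therefore cannot be assigned to Clec7a-202.

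Clec4n-202, which lacks 34 codons, took 25.4%, 30.7% and 16.2% in the RSEM-format table (24.1% ± 7.32, SD, n = 3) and 21.5%, 26.1% and 15.0% in the kallisto-format table. Its last exon (581 bases) has nearly the same length as that of Clec4n-201 (579 bases). For Clec4a2 the transcripts without the 72-base exon took 75.7%, 75.8% and 49.5% in the RSEM-format table and 73.8%, 73.9% and 46.0% in the kallisto-format table. The leading transcript was Clec4a2-204 (40.5 and 35.1 TPM in replicates 1 and 2) and in replicate 3 Clec4a2-201, which includes the exon (21.8 TPM against 17.8 TPM for Clec4a2-204). For Clec5a skipping took 41.5%, 41.9% and 24.8% in the RSEM-format table and 38.3%, 42.4% and 21.7% in the kallisto-format table. Single transcripts in these shares had at most 8.73 TPM. Clec5a-201 has no annotated coding sequence and was left out of them. It had 22.8, 15.9 and 25.2 TPM in replicates 1, 2 and 3 of the RSEM-format table.

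**Figure D4:**
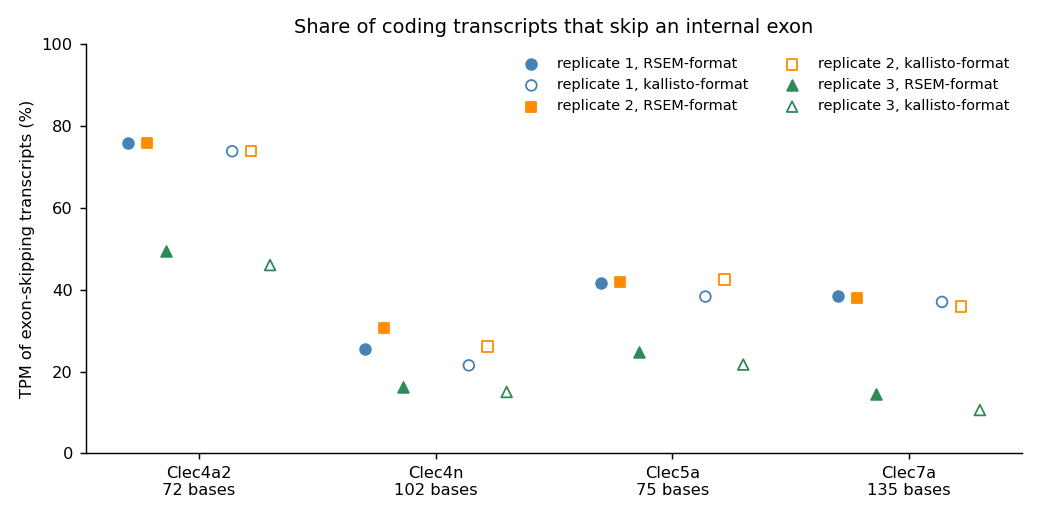
Share of TPM (%) of transcripts that skip the exon, over transcripts with an annotated coding sequence that skip or include it, for 4 genes. Filled symbols are the RSEM-format and open symbols the kallisto-format table, with 1 symbol per library. Replicate 3 is the lowest library for each gene in both tables, at 14.5% against 38.5% and 37.9% for Clec7a in the RSEM-format table.

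In all 4 genes replicate 3 had the lowest share of skipping in both tables, a pattern picked out after the shares were seen. The same held for 33.3% of the 2117 exons that met the 10% to 90% rule over all genes. Replicate 3 also had the largest library total (53447437 counts, against 27946070 and 29779410 in replicates 1 and 2). Over genes at 1 TPM or more, its median log2 ratio of kallisto-format over RSEM-format TPM was -0.06, against -0.41 and -0.40. The part of these differences in the transcript shares was not tested.

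The stalk exon of Clec7a comes in annotated forms that differ at its start. C57BL/6J is the strain of the reference genome, and the annotation calls Clec7a a polymorphic pseudogene, a gene whose reading frame is interrupted in the reference strain. The stretch where exon 2 meets the next exon is shown for its 3 main transcripts. The lines run over 45 bases of spliced RNA that begin with the same 15 bases of exon 2, with capitals for what follows them: the 10 bases by which Clec7a-201 and Clec7a-204 differ, or, in Clec7a-202, the start of the exon after the stalk. The first and last base lie at chr6:129468974-129470913 for Clec7a-201 and Clec7a-204 and at chr6:129467639-129470913 for Clec7a-202, on the - strand with an intron between.
Clec7a-201: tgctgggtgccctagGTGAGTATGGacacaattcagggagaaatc
Clec7a-204: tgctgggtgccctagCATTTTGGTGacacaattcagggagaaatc
Clec7a-202: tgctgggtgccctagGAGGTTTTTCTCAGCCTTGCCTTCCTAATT

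Clec7a-201 extends exon 2 by 10 bases and begins the stalk exon 10 bases later than Clec7a-204, so both have the same length there and 8 of 10 positions in capitals differ, with 0 differences in the rest of the 45 bases. Clec7a-204, annotated as the pseudogene form, has a stop (tga) as codon 71 of its 244, while Clec7a-201 reads through 244 codons with 0 stops and the stalkless Clec7a-202 has 199. Only spliced sequences were read, so whether the join in Clec7a-201 uses standard splice sites could not be checked. That form, and the TPM assigned to it, rest on the annotation. Clec7a-201 had 73.3, 214 and 529 TPM in replicates 1, 2 and 3 and Clec7a-204 had 36.0, 79.3 and 139 TPM. Only reads over this stretch, or over the first bases of exon 1, can separate them. Clec7a-204 held 20.2%, 16.7% and 17.6% of the gene in replicates 1, 2 and 3.

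Clec4d, the member of highest mean level over the 3 libraries, had a further form with an altered frame. Clec4d-203 joins exon 3 to a site 77 bases inside exon 4, which is no multiple of 3, and its 79 codons are annotated as a target of nonsense-mediated decay, against 219 codons in Clec4d-201. The bases it leaves out are shown in capitals between 12 bases on each side (capitals at chr6:123267992-123268068, + strand).
Clec4d exon 4: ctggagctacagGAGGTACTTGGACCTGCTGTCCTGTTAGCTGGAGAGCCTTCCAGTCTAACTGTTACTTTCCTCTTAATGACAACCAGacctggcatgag

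Clec4d-203 took 21.9%, 24.6% and 42.3% of the gene's TPM in replicates 1, 2 and 3 of the RSEM-format table (29.6% ± 11.1, SD, n = 3) and 29.0%, 30.5% and 45.1% in the kallisto-format table. Replicate 3 was the high library in both. In TPM it had 151, 108 and 305, so its lowest library exceeded every library of Clec4a2, Clec5a and Clec4e. The last exon of Clec4d-203 is annotated with 266 bases, against 608 in Clec4d-201.

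Clec5a was led by a transcript annotated as not coding. Clec5a-201, a processed transcript, held 60.4%, 53.4% and 84.0% of the gene in the RSEM-format table and 56.2%, 49.4% and 83.6% in the kallisto-format table. Its last exon is annotated with 1364 bases, against 231 in Clec5a-203 and 121 in Clec5a-204. A coding form that stayed below 10% has one of 3187 bases. The part of these lengths in the shares was not tested. A leading transcript that is not coding in every library was found for 1 of 8 members, against 3.26% of coding genes with several transcripts. The coding form with the 75-base exon, Clec5a-203, had 8.73, 8.07 and 3.60 TPM in replicates 1, 2 and 3. Clec4e was led by Clec4e-201 (8.98, 22.3 and 8.06 TPM), and Clec4a3 by Clec4a3-201 (32.4, 191 and 96.8 TPM), in every library of both tables.

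**Figure D5:**
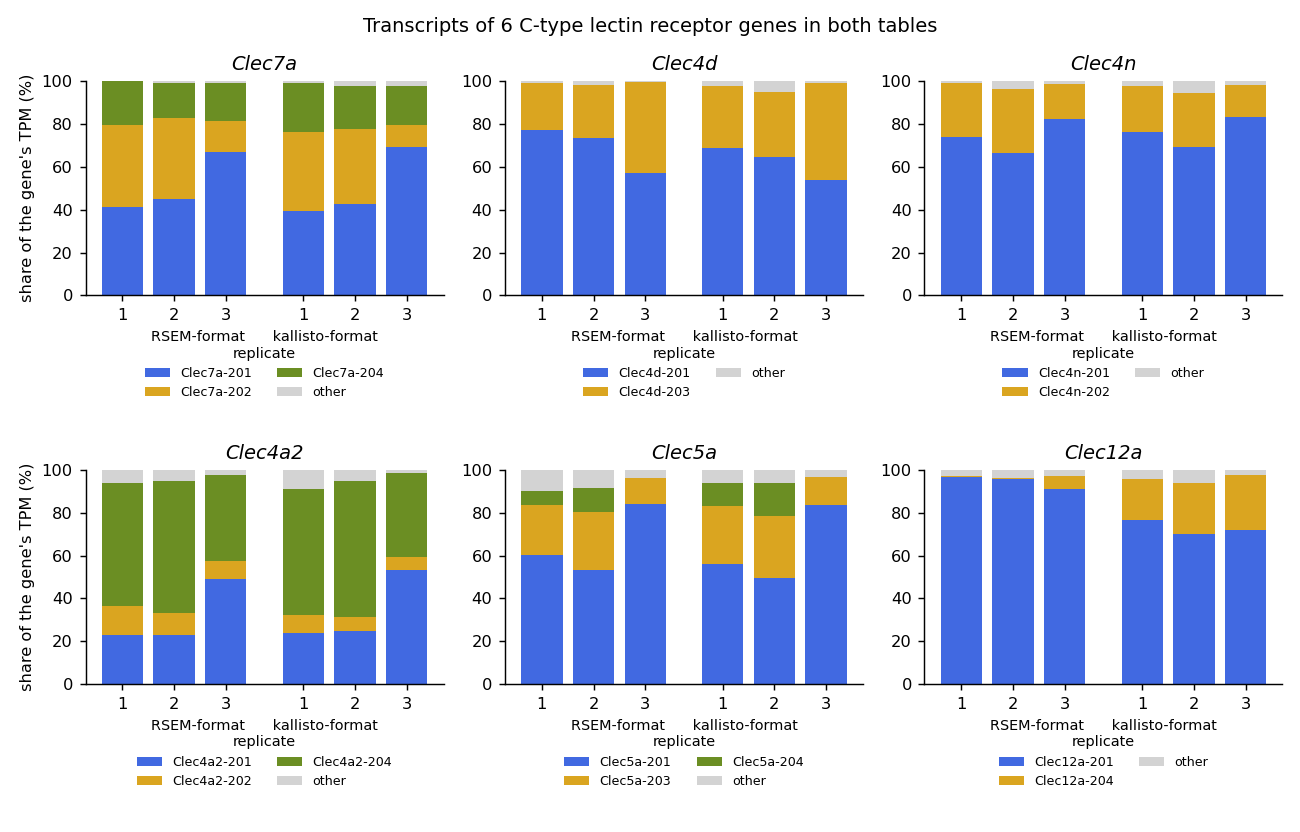
Share of the gene's TPM (%) held by each transcript with at least 10% in some library, for 6 genes, with the 3 libraries of the RSEM-format table on the left of each panel and those of the kallisto-format table on the right. Clec7a-202 shrinks and Clec4d-203 grows in replicate 3 in both tables, which rest on the same reads. Clec12a-204 is visible mainly in the kallisto-format table.

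At the level of whole genes the mean levels of the receptors were lower or level in the kallisto-format table. Clec4n had 206 TPM there against 275 TPM, Clec2d 85.3 against 116 TPM and Clec7a 387 against 481 TPM, while Clec12a had 187 TPM in both. After removal of the median ratio of each library, 0 of 10 members were over 1.5-fold apart between the tables in every library. Such a difference was found for 3.60% of genes at 1 TPM or more, so a count of 0 among 10 does not set the receptors apart. The median log2 ratio of kallisto-format over RSEM-format TPM was -0.41, -0.40 and -0.06 over all such genes in replicates 1, 2 and 3, and members ran from -0.55 (Clec2d in replicate 2) to 0.15 (Clec12a in replicate 3). Stretches of 31 bases shared with other genes, where reads can be divided wrongly, were 11.8% of those of Clec2d, foremost with Clec2i (3.23, 6.11 and 3.96 TPM), and 10.9% of those of Clec4a2, foremost with Clec4a4 (0.31, 0.98 and 0.53 TPM). They were 2.19% for Clec4a3, which shares some with Clec4a2, and at most 1.96% for the other members, with 0 for Clec4a1, Clec4d and Clec5a. How reads in these stretches were assigned rests on the authors' quantification. Of the 30 expected counts of the members 29 were whole to within 0.005, as they are where reads are not divided among genes.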

How the data were processed

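Polyadenylated RNA of 3 libraries of 1 group was measured. Expected counts and TPM per gene and per transcript were deposited in tables that, per the file headers, have the format of RSEM. Estimated counts and TPM per transcript were deposited in a second table that, per the file headers, has the format of kallisto. The labels give the build mm10, and the 55536 genes used are the entries of the gene tables whose identifiers are in GENCODE M21. FPKM were deposited beside them and not used for any result. Which aligner and program versions were used, and whether strand was counted, is not given in the sources used here. Entries that name no such gene (26345, with 0.0843% to 0.131% of the counts) were left out.

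TPM of the gene table are the levels given. Expected counts were rounded, filtered with filterByExpr and scaled by TMM in edgeR 4.0.16 (R 4.3.3, limma 3.58.1) with a prior count of 0.5. The rule of a 2-fold difference was also run on simulated counts, whose spread was a fixed setting not estimated from these libraries. That run does not show how often unchanged genes pass the rule here. The percent of each transcript was computed from the TPM deposited. Library totals were 27946070, 29779410 and 53447437 counts, and a count of 0 would allow 3 counts (0.107, 0.101 and 0.0561 CPM); intervals cover counting error only. Sequences were read from GENCODE M21 transcripts with Biopython 1.88 and coding sequences were aligned globally.

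The members, gene lists and rules were chosen with earlier results of these data known. Of the other lists the 3 genes of highest mean TPM and the lowest were eligible for naming, with adaptors and kinases as needed, neighbours at 1 TPM in some library and transcripts with 10% of a gene. Clec2i, Klrb1b, Clec4f, Cd209b, Clec4a4, Clec4b2 and the silent neighbours were named after their values were seen. Alternatives were DESeq2 1.42.0 size factors, log2 TPM with pseudocount 1, no filter, a threshold of 5 TPM, posterior means, the kallisto-format table and leaving out each replicate.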

Additional observations from a re-analysis of the deposited data

How the results depend on the processing

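Of 124 values recomputed under other settings, 118 moved by less than the spread between libraries (counts: by at most 1.5 times) and 6 moved further. Changes of direction were not assessed. Leaving out 1 of 3 replicates cannot shift a mean by a full SD, so member means and transcript shares could not count as moved there. A count could also stay within the rule while its genes changed. With log2 TPM the members highest in replicate 1 numbered 2, Clec4a2 and Clec5a. On this scale the median log2 ratio of all genes tested is 0.10, 0.12 and -0.23 in replicates 1, 2 and 3, against 0.00, 0.00 and 0.01 with TMM. The median share of the leading transcript over 8 members was 71.6% in the RSEM-format and 62.9% in the kallisto-format table. With no filter the share of all genes over 2-fold apart was 37.3%, 39.4% and 38.6% for the pairs 1 and 2, 1 and 3, and 2 and 3 of replicates (21603 genes). The other values that moved were the mean of Clec5a (27.0 TPM in the kallisto-format table, against 32.5 TPM) and the kallisto-format shares of Clec4a3-201 (64.9%), Clec4e-201 (62.8%) and Clec12a-201 (72.9%). Without 1 replicate the median level of the list ran from 101 to 193 TPM, the median leading share from 70.6% to 72.8%, and the counts of members at 1 TPM and of members apart between tables stayed at 10 and 0. The mean of Clec4e without replicate 2 was 9.46 TPM and that of Clec4a3 85.0 TPM, both more than 1.5 times below their means over 3 libraries; the cause was not tested. No paired analysis was possible because there was 1 group.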
